A study of Mus musculus with 43 samples.

Results

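The genes described here encode 10 lysosomal proteases: the cathepsins Ctsa, Ctsb, Ctsc, Ctsd, Ctsf, Ctsh, Ctsl, Ctss and Ctsz, and legumain (Lgmn). They were found by symbol in the authors' deposited gene table and are 10 of its 22462 genes. The set was chosen with the control and knockout FPKM values of these genes in view, so those values are given as a description and carry no test of the set. The series compared E14 mouse embryonic stem cells labelled control with E14 cells labelled MTF2 KO. MTF2 is a Polycomb-like subunit of PRC2, the complex that methylates histone H3 at lysine 27. Both groups were grown on gelatin-coated plates in DMEM with fetal calf serum and LIF, and poly(A) RNA was sequenced from 3 libraries in each group. By the design text, these are biological replicates. The sources used here do not say how the knockout was made or whether it is 1 clone or several. ChIP-seq and rescue samples of the series are not used here.

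Cathepsins are proteases of the endosome and lysosome that are made as inactive proenzymes, tagged with mannose 6-phosphate in the Golgi, carried to the lysosome by receptors and activated there at acid pH. Most are papain-like cysteine proteases, while cathepsin D is an aspartic protease, cathepsin A a serine carboxypeptidase, and legumain a cysteine protease that cuts after asparagine and trims other cathepsins to their mature forms. In the early mouse embryo, high lysosomal protease activity is known from the endoderm lineages, which take up and digest maternal protein. Transcription factors of the MiT/TFE family bind an E-box, CACGTG, near the start of many lysosomal genes.

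The table holds 1 FPKM value per gene and group, pooled over the 3 libraries, so no value per library, SD or replicate test can be given and the depth of each library is unknown. FPKM counts fragments scaled to transcript length and library size, so levels of different genes can be set side by side. Every FPKM value below is the authors' pooled value, and every q is the Cuffdiff q of the authors' deposited table. A gene is called where the status is OK and q is at or under 0.05. Ratios are given as log2((knockout FPKM + 0.5)/(control FPKM + 0.5)), so the pseudocount makes changes of low genes look smaller than they are. The targeted gene Mtf2 had 74.3 FPKM in control cells against 44.7 in the knockout (ratio -0.73, q = 0.0496 in the authors' deposited table), so its transcript was lower but still present at 60.2% of control. Because these are bulk samples, more cells of a type and more RNA per cell cannot be told apart.

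The promoter sequences are shown first because several of these genes share a motif in them. RefSeq windows on GRCm38.p6, from 250 bases before to 50 bases after a transcript start, were at hand for 8 of the 10 genes, with 2 starts each for Ctsa and Lgmn. Ctsb and Ctsh had no entry. Searched on both strands, the E-box CACGTG occurred in 5 of these 8 genes and in 5 of their 10 windows, against 7.15% of all 32851 windows and 8.09% of the 27025 genes with a window. The windows that hold it are printed from their upstream end to 20 bases past the start, 5′ to 3′ on the gene's strand, with each E-box in capitals. They come from chr2:164833523-164833792 (+ strand, the downstream of 2 Ctsa starts), chr7:142387808-142388077 (- strand), chr13:64370501-64370770 (- strand), chr12:102439073-102439342 (- strand, the downstream of 2 Lgmn starts) and chr19:4854915-4855184 (+ strand).
Ctsa: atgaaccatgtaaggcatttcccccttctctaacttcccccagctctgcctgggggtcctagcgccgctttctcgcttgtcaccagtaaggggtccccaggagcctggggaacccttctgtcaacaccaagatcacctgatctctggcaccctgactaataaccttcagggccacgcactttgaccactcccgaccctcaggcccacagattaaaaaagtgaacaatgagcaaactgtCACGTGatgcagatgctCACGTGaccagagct
Ctsd: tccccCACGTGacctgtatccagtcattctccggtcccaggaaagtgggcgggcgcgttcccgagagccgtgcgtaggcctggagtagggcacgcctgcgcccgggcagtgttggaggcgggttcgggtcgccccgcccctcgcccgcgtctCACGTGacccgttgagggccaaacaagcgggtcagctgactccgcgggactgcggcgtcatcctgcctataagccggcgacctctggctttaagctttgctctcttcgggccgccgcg
Ctsl: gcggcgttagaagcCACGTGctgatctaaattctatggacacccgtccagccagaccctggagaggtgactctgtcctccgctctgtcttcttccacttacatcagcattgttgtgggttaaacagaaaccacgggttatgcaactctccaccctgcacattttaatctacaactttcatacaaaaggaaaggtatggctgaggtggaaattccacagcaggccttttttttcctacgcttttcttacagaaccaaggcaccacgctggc
Lgmn: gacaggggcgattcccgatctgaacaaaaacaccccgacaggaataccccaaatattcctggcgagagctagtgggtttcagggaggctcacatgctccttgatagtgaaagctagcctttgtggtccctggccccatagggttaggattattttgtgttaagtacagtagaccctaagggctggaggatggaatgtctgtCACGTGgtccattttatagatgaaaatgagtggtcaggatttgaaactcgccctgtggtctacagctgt
Ctsf: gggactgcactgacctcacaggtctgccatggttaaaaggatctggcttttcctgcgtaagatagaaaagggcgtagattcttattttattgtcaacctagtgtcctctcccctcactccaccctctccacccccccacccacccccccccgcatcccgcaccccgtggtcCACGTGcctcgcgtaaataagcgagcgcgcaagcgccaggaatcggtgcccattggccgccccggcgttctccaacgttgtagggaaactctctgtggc

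Ctsa and Ctsd each held 2 E-boxes, and 0.594% of all windows held 2 or more. Counted from the transcript start, with bases before it negative, the Ctsa pair began at -12 and 6 and the Ctsd pair at -245 and -98. The single E-box began at -236 in Ctsl, at -79 in Ctsf and at -49 in the second Lgmn window. Both Ctsa matches and the nearer Ctsd match lay within the longer palindrome TCACGTGA, a search added after the sequences were seen. That 8-base form was in 2 of the 8 genes, against 1.12% of all genes with a window and 0.974% of all windows. The 10-base consensus of the CLEAR element, which extends the E-box at both ends, was in none of the 8 genes. It was in 0.370% of all genes with a window and 0.326% of all windows. The GATA-type motif AGATAA was in 1 gene, Ctsz, against 12.7% of genes and 11.2% of windows. TATAAA was in Ctss and the second Lgmn window, against 15.7% of genes and 13.6% of windows. None of the other motifs overlaps CACGTG except the longer forms built around it. The member windows held 5 to 33 CpG dinucleotides, with a median of 12 against 7 over all windows (interquartile range 3 to 20). Ctsd had the most, more than 91.4% of all windows had, and Ctss the fewest. A match is a run of letters and not a measured binding site, and the table does not say which start the cells used.

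**Figure D1:**
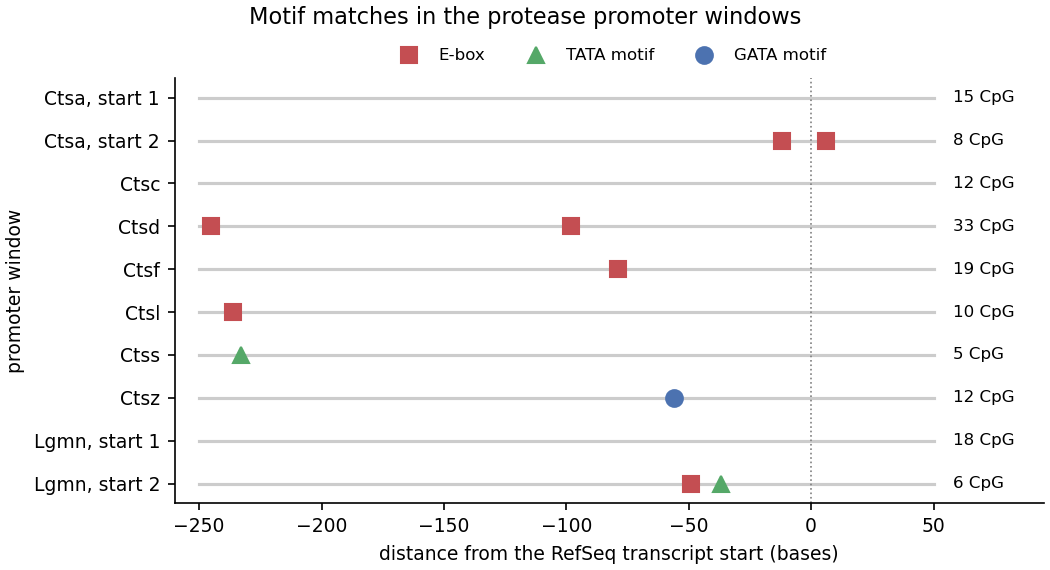
Each line is a promoter window of 1 protease gene, drawn by distance in bases from the RefSeq transcript start (dotted line at 0), with symbols at the first base of each E-box, TATA and GATA motif match and the CpG count at the right. E-boxes appear in 5 of the 10 windows, as pairs in the second Ctsa window and in Ctsd.

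In knockout cells, 7 of the 10 protease genes were called higher and 0 lower, while 2 were tested without a call and 1 was not tested. Over all 11362 tested genes, 12.9% were called, 6.9% higher and 6.03% lower. The set was chosen on this contrast, so the comparison of these shares is not a result. Tested members had a median ratio of 1.35, against -0.0035 over all tested genes. Added over the 10 genes, protease transcripts came to 384 FPKM in control cells against 1063 FPKM in the knockout, which is 2.77 times as much. They held 0.0687% of all control FPKM in the table and 0.211% of all knockout FPKM. The authors' filter passed 9 members, and Ctsh, at 0.757 FPKM in control, is the only one of these under 1 FPKM in a group.

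**Figure D2:**
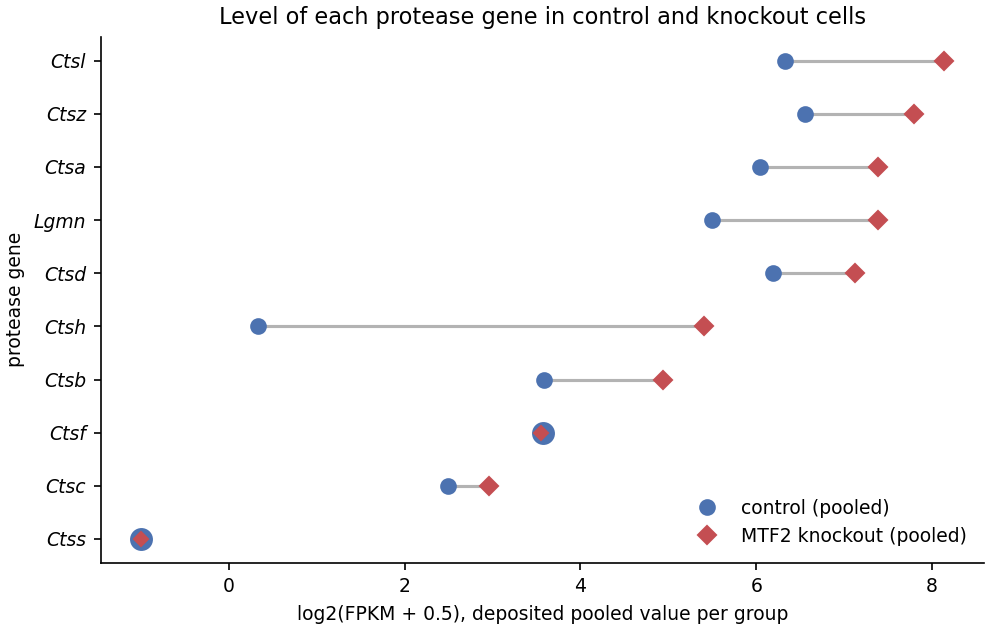
Each row is 1 protease gene, with the pooled control value (circle) and the pooled knockout value (diamond) on a log2(FPKM + 0.5) axis, ordered by knockout level. The knockout value lies to the right of the control value in 8 of the 10 genes, while the symbols of Ctsf overlap and Ctss is listed at 0 in both groups.

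Among the endopeptidases, which cut inside protein chains, Ctsl (chromosome 13, 64363214 to 64370306, mm10) had the highest knockout level. It went from 79.8 FPKM in control to 280 FPKM in knockout cells, with a ratio of 1.80 and q = 0.0012 in the authors' deposited table. Cathepsin L is a general lysosomal endopeptidase that also trims other proteases. It rose from the second to the first place among the 10 genes, and its knockout level was above that of 97.6% of tested genes. Legumain, Lgmn (chromosome 12, 102394084 to 102439813), went from 44.8 to 166 FPKM, a ratio of 1.88 with q = 0.0012 in the authors' deposited table. Among the called members it had the largest ratio after Ctsh, and 328 tested genes had a larger one. Ctsd (chromosome 7, 142326110 to 142388038) encodes the main aspartic protease of lysosomes and went from 72.3 to 139 FPKM. Its ratio of 0.94 was the smallest of the 7 called members (q = 0.0233 in the authors' deposited table) and fell short of a 2-fold change, at 1.92 times the control value.

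Cathepsin B, encoded by Ctsb (chromosome 14, 63122462 to 63177793), works both as an endopeptidase and by removing dipeptides from the carboxyl end. Ctsb was lower in level than the genes above, with 11.5 FPKM in control cells against 30.3 FPKM in the knockout, a ratio of 1.36 (q = 0.0012 in the authors' deposited table). Ctsf (chromosome 19, 4855129 to 4860912), a cysteine protease with a long propeptide, began at almost the same control level of 11.4 FPKM. It stood at 11.3 FPKM in knockout cells (ratio -0.01, q = 0.985 in the authors' deposited table), so it was not called. The sign of this small ratio is not fixed: with both groups scaled to the same summed FPKM, a shift of 0.15 on the log2 scale before the pseudocount, it was 0.13. Of the 5 genes with an E-box in a window, 4 were called higher (Ctsa, Ctsd, Ctsl and Lgmn) and Ctsf was not. Of the 3 with a window and no E-box, Ctsz was called higher and Ctsc and Ctss were not. Ctsb and Ctsh, both called higher, had no window and are in neither count. The set was chosen on this contrast, so nothing is read from this split, and a link of the E-box to the calls was not tested.

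Of the exopeptidases, which trim residues from chain ends, Ctsh changed most, while Ctsz, Ctsa and Ctsc had ratios of 1.24, 1.35 and 0.47. Ctsh (chromosome 9, 90054267 to 90076089), an aminopeptidase, stood at 0.757 FPKM in control cells against 41.9 FPKM in the knockout. That is 55.3 times the control value, or a ratio of 5.07 with the pseudocount (q = 0.00518 in the authors' deposited table). Only 9 of the 11362 tested genes had a larger ratio. Ctsh was above 3.88% of tested genes in control and above 79.7% in knockout cells, and it passed from the ninth to the sixth place among the 10. The control level is low, so the size of this change depends on a small value whose error is not known. With pseudocounts of 0.1 and 1 the ratio was 5.61 and 4.61.

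Ctsz (chromosome 2, 174415804 to 174439039) encodes cathepsin X, a carboxypeptidase that removes single residues. It had the highest control level of the set, 93.2 FPKM, and 221 FPKM in knockout cells (ratio 1.24, q = 0.0210 in the authors' deposited table). Ctsa (chromosome 2, 164830732 to 164857711), the serine carboxypeptidase that also protects lysosomal sialidase and beta-galactosidase, went from 65.2 to 167 FPKM. Its ratio was 1.35 (q = 0.0012 in the authors' deposited table). Ctsc (chromosome 7, 88278085 to 88310888), a dipeptidyl peptidase known for activating serine proteases of blood cell granules, stood at 5.12 and 7.27 FPKM. It was not called (ratio 0.47, q = 0.437 in the authors' deposited table). Ctss (chromosome 3, 95526786 to 95556403), known for processing the MHC class II invariant chain in antigen-presenting cells, was listed at 0 in both groups and was not tested.

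The order of the genes was Ctsz, Ctsl, Ctsd, Ctsa, Lgmn, Ctsb, Ctsf, Ctsc, Ctsh and Ctss in control cells. In knockout cells it was Ctsl, Ctsz, Ctsa, Lgmn, Ctsd, Ctsh, Ctsb, Ctsf, Ctsc and Ctss. Without values per library, it cannot be said which neighbours in these orders differ beyond their spread. In knockout cells Ctsa and Lgmn, at 167 and 166 FPKM, were nearly level. The share of the summed protease FPKM held by Ctsl went from 20.8% to 26.3% and that of Lgmn from 11.7% to 15.6%. The share of Ctsh went from 0.197% to 3.94%. Shares of Ctsz (24.3% and 20.8%), Ctsd (18.8% and 13.1%) and Ctsa (17.0% and 15.7%) were smaller in knockout cells although their levels were higher. Ctsb held 2.996% in control and 2.85% in knockout cells.

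**Figure D3:**
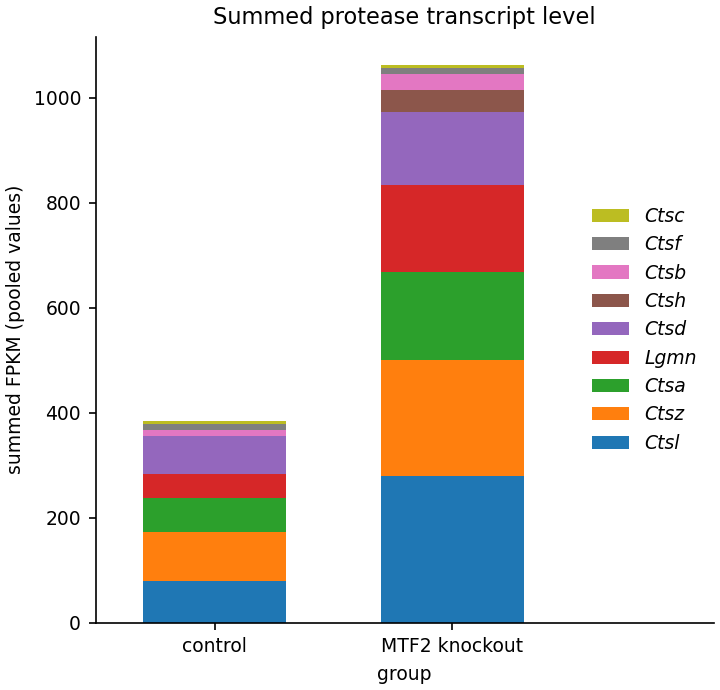
Stacked bars show the pooled FPKM of each protease gene in control and MTF2 knockout cells on an axis that starts at 0. The bar is 384 FPKM high in control and 1063 FPKM in knockout cells, and Ctsl, Ctsz, Ctsa, Lgmn and Ctsd make up most of both.

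The calls were not equally firm. At a q of 0.01 in the authors' deposited table, 5 members were called higher, with Ctsd and Ctsz lost, where 6.82% of tested genes were called (3.86% higher, 2.96% lower). With a 2-fold minimum 6 were called higher, with Ctsd lost, where 7.91% of tested genes were called (4.99% higher, 2.92% lower). Among genes at 5 FPKM or more in either group, all 7 were called higher, where 16.8% were called (8.7% higher, 8.15% lower). Ctsh passed this minimum only through its knockout value, so the minimum is no check of its low control level. With a normal p computed from the deposited test statistic, Ctsh, Ctsl and Lgmn were the 3 called higher, where 1.1% of genes with a finite statistic were called (0.845% higher, 0.258% lower). The deposited p does not follow from the statistic in this way. Ctsd had a statistic of 1.87 with a Cuffdiff p of 0.0022, but a q of 0.658 from the normal p. This alternative therefore cannot show how firm a single deposited call is. The set was chosen on this contrast, so nothing is read from these shares either.

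Each gene was set beside its surroundings, since earlier results of these data showed whole stretches of chromosome 14 higher in the knockout cells. Ctsb is the only member on that chromosome. Over 404 other chromosome 14 genes with an FPKM of 1 or more in either group, the median ratio was 0.70, with 115 called higher and 10 lower. Of the 13 such genes within 1 Mb of Ctsb, 8 were called higher and 0 lower, and their median ratio was 1.60. Ctsb at 1.36 was thus 0.65 above the chromosome median and below its neighbours by a difference of -0.25, and 7 of the 13 had a larger ratio. Gata4 (ratio 4.76) and Sox7 (3.76), regulators of primitive endoderm, are among these neighbours. The part of the chromosome 14 difference in the Ctsb value was not tested.

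The other 6 called members lay above the medians of their chromosomes and of their neighbours. Their chromosome medians lay between -0.09 and 0.09. A place above these was fixed in advance, since the 6 genes were picked as called higher. On chromosome 9, none of 679 other expressed genes had a ratio as large as that of Ctsh, and its 5 neighbours within 1 Mb lay between -2.40 and -0.23. Ctsl stood above all of its 11 neighbours, which lay between -1.36 and 0.56. Lgmn was above 16 of 17 neighbours, Ctsz above 8 of 9, Ctsa above 29 of 30 and Ctsd above 18 of 22. For Ctsd the difference from the median of its neighbours was 0.97 within 1 Mb and 0.44 within 0.5 Mb. With the chromosome median subtracted, the ratios of these 6 genes ranged from 1.03 for Ctsd to 5.08 for Ctsh. The 2 neighbours of Ctsc had ratios of -1.54 and -0.50. Ctsf and Ctss lay inside the range of their neighbours.

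**Figure D4:**
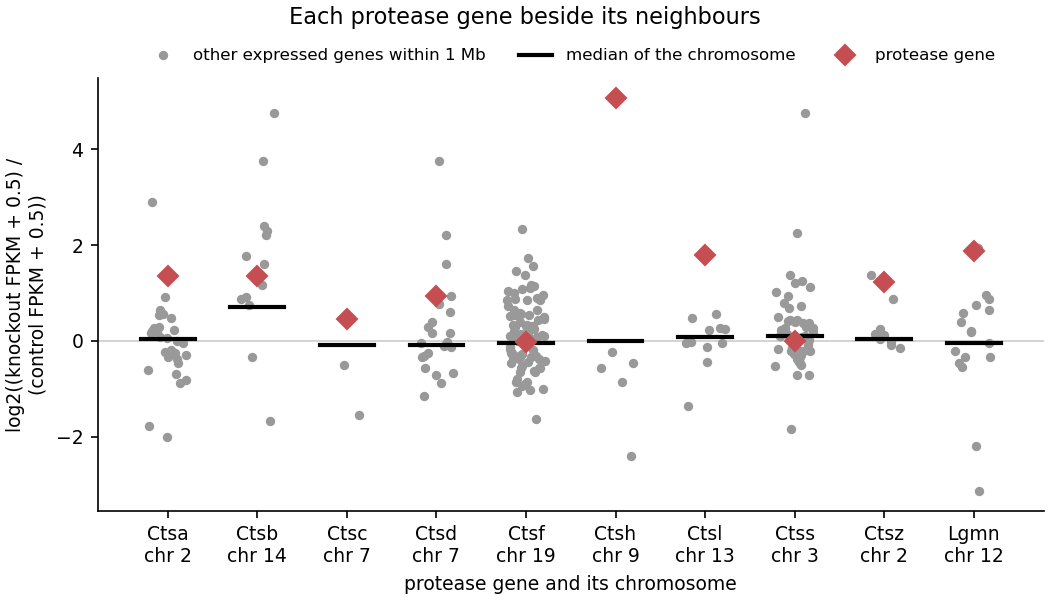
For each protease gene (diamond), grey points give the ratio of the other expressed genes within 1 Mb and the black bar the median of its chromosome. The Ctsb diamond, at 1.36, lies among raised neighbours on chromosome 14, while Ctsh, at 5.07, lies above all points of its column.

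In 4 cases the locus entry of a member in the table is shared with other genes: Ctsa with Pltp and Neurl2, Ctsb with Fdft1, Ctsd with Ifitm10 and RP23-145I16.3, and Ctsz with Nelfcd. The sources used here do not say whether the counting used strand, so reads where such genes overlap may be split between them. Of these 6 partners none was called, and all had ratios above 0. Nelfcd, a subunit of the negative elongation factor, stood at 117 and 119 FPKM beside the higher Ctsz. Pltp, a phospholipid transfer protein, stood at 32.7 and 62.4 FPKM and was not called. The cholesterol synthesis enzyme Fdft1 stood at 8.41 and 16.0 FPKM and was not called, and RP23-145I16.3 stood at 132 and 200 FPKM and was not called either. Ifitm10, in the Ctsd entry, was listed at 0 and 1.83 FPKM, and Neurl2, in the Ctsa entry, stood at 0.6995 and 1.39 FPKM and was not tested.

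Outside the set, cathepsin genes were nearly silent. Of 14 others in the table, 13 were under 1 FPKM in both groups and 10 were listed at 0 in both. These include placental cathepsins on chromosome 13, where Ctsl also lies, and of them Cts8 was at 0.0451 and 0.123 FPKM. The 1 tested gene, Ctsw, a cathepsin of cytotoxic lymphocytes, stood at 0.765 and 1.79 FPKM and was not called (q = 0.430 in the authors' deposited table). Ctso was listed at 0 and at 0.193 FPKM, and the osteoclast cathepsin Ctsk, which lies beside Ctss, at 0 in both groups.

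Of 6 tested lysosomal peptidases from other families, 3 were called higher and 0 lower, with a median ratio of 0.42, against 6.9% higher and 6.03% lower over the whole table of tested genes. These shares are the background for the lists that follow too. Over all 8 related lists, from the other cathepsins to the proteasome, the 56 tested genes had 14 higher calls (25%) and 3 lower calls (5.36%). Napsa, an aspartic protease related to cathepsin D, went from 2.16 to 12.1 FPKM (ratio 2.24). Tpp1, a tripeptidyl peptidase, went from 6.89 to 22.8 FPKM, and Dpp7, a dipeptidyl peptidase, from 12.6 to 24.3 FPKM (q = 0.0370 in the authors' deposited table). The serine carboxypeptidase Scpep1, a relative of Ctsa, had the highest level of this list and was not called, with 235 FPKM in control cells against 207 FPKM in the knockout.

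Inhibitors of cysteine cathepsins were represented by few genes. Of 15 listed, 3 were tested, and 2 of these were called higher and 0 lower. Cst3, which encodes the secreted inhibitor cystatin C, went from 70.8 to 131 FPKM (ratio 0.88), and Cstb, the cytosolic inhibitor stefin B, from 34.5 to 69.8 FPKM (ratio 1.01, q = 0.0457 in the authors' deposited table). The 7 cysteine cathepsin genes of the set summed to 202 FPKM in control cells against 591 FPKM in the knockout. Set against the sum of Cst3 and Cstb, 105 and 200 FPKM, cathepsin transcripts were 1.92 times the inhibitor transcripts in control and 2.95 times in knockout cells. The cathepsin genes were chosen on this contrast and the ratio after the values were seen, so its rise is not a result. The ratio compares transcripts, not enzyme activity.

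Of 10 tested genes that bring proenzymes to the lysosome, 3 were called higher and 1 lower, and the median ratio was 0.64, against 6.9% and 6.03% of all tested genes. Igf2r, the large mannose 6-phosphate receptor and an imprinted gene, went from 13.0 to 25.7 FPKM, a call that the 2-fold minimum did not keep. Sort1, the alternative sorting receptor sortilin, went from 4.34 to 12.0 FPKM, and Scarb2, the receptor for beta-glucocerebrosidase, from 4.21 to 12.4 FPKM (ratio 1.45). Gga1, an adaptor that binds the receptors in the Golgi, fell from 44.0 to 26.4 FPKM (q = 0.0210 in the authors' deposited table), a call that neither a q of 0.01 nor the 2-fold minimum kept. The small receptor M6pr (38.9 and 53.7 FPKM) and the phosphotransferase gene Gnptab (5.97 and 9.33 FPKM) were not called.

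Of the 4 genes tied to cathepsin A and to saposin processing, 1 was called higher. Neu1, the sialidase that cathepsin A protects, went from 10.8 to 24.1 FPKM, with q = 0.00591 in the authors' deposited table. Its complex partner Glb1 (38.1 and 39.7 FPKM) and Psap, the precursor of the saposins that cathepsin D cleaves (157 and 160 FPKM), were not called. Among 6 regulators of lysosomal genes, 3 were called higher and 0 lower. The called genes were Tfec, which encodes a factor of the MiT/TFE family (listed at 0 and 2.75 FPKM), the calcium channel gene Mcoln1 (21.6 and 49.7 FPKM) and Flcn (21.8 and 38.3 FPKM). The 2-fold minimum did not keep the Flcn call. The other factors of that family, Tfeb (41.5 and 50.9 FPKM), Tfe3 (24.6 and 27.9 FPKM) and Mitf (8.25 and 7.48 FPKM), were not called.

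In proteolysis outside the lysosome, the shares called were close to the 6.9% higher and 6.03% lower of all tested genes. Among 12 tested calpains and caspases, 1 was called higher and 1 lower, with a median ratio of -0.42. Capn2 went from 4.87 to 24.8 FPKM and Capn15 from 12.7 to 6.46 FPKM. Of 14 subunits of the 20S proteasome, 1 was called higher, Psmb7 (184 to 335 FPKM), and 1 lower, Psmb3 (92.1 to 44.4 FPKM), with a median of -0.07. The 2-fold minimum did not keep the Psmb7 call. Whether the protease set differs from these lists was not tested, because its members were chosen on this contrast.

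**Figure D5:**
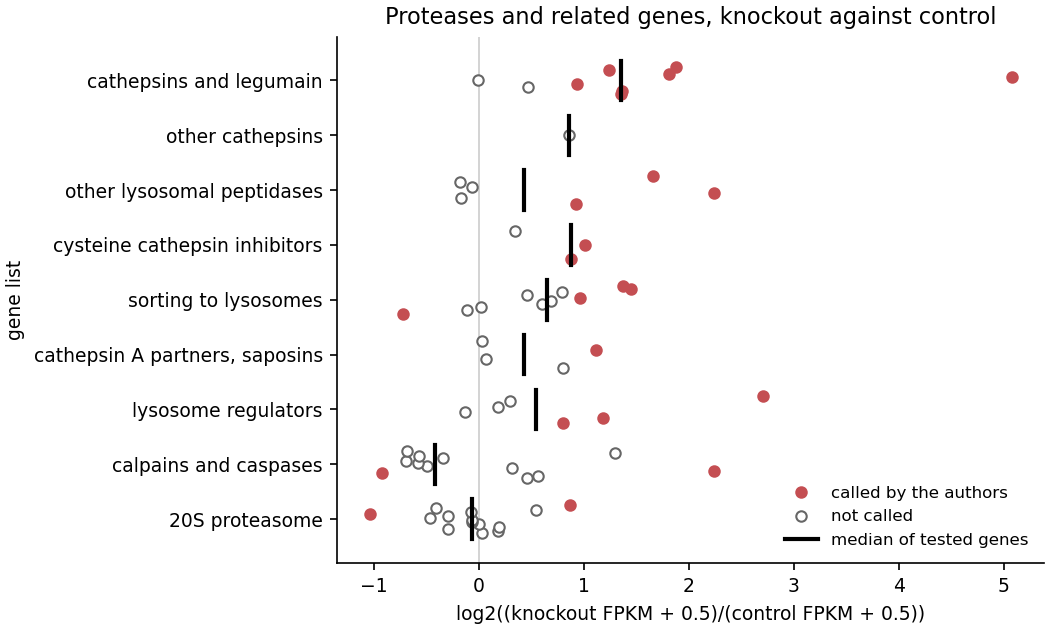
Each point is the ratio of 1 tested gene, filled where the authors called it and open where not, in rows by gene list, with a black bar at the median of the tested genes of the list. The cathepsin and legumain row has its median at 1.35, and the proteasome row at -0.07.

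Markers of other cell types were measured beside these genes. Of 12 primitive endoderm markers, 11 were called higher and 0 lower, against 6.9% and 6.03% of all tested genes, and their summed level was 350 FPKM in control cells against 1760 FPKM in the knockout. Sparc (180 to 788 FPKM) and Lamc1 (115 to 191 FPKM) had the highest levels in both groups and made up most of these sums. None of the 12 was listed at 0 in both groups. The called markers with the largest ratios were Dab2, an adaptor of endocytosis (0.526 to 30.3 FPKM), the basement membrane collagen gene Col4a2 (4.86 to 159 FPKM), Gata4 (2.17 to 71.7 FPKM) and the collagen gene Col4a1 (6.49 to 185 FPKM). Sox17, the marker that was not called, had a larger ratio than these, 5.27. Of 13 visceral endoderm markers, 7 were tested, 3 were called higher and 0 lower, and the sum went from 11.7 to 56.1 FPKM. Among the called genes were those of the uptake receptors Cubn (0.279 to 5.10 FPKM) and Lrp2 (2.67 to 10.3 FPKM), while Afp was listed at 0 and 0.0945 FPKM and Apoa4 at 0 in both. Of the 7 tested markers, 6 had ratios above 0. Hnf4a went the other way, with 2.25 FPKM in control cells and 1.08 FPKM in the knockout (ratio -0.80), and was not called. Amn (0.356 to 11.5 FPKM) and Foxa2 (0.904 to 9.92 FPKM), which hold a large part of the knockout sum, were not called either. The part of these markers in the protease values was not tested.

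Macrophages are rich in cathepsins, so their markers were read too. Of 14 in the table, 12 were under 1 FPKM in both groups, and Ptprc, Fcer1g, Lyz2, Cd14, C1qb and C1qc were listed at 0 in both. Laptm5, a lysosomal membrane protein of blood cells, made up most of the summed level of 65.6 and 78.0 FPKM, and neither it nor Spi1 was called. Of 10 fibroblast markers, 7 were under 1 FPKM in both groups, 3 were tested and 0 were called. Col3a1, Postn, Dcn and Twist2 were at 0 in both. The sums were 9.24 and 16.5 FPKM, with the highest levels in Thy1 (5.14 and 11.4 FPKM) and Twist1 (2.18 and 3.39 FPKM). Of 8 trophoblast markers, 3 were tested, of which 1 was called lower, Tfap2c (16.9 to 7.41 FPKM), and 0 higher. Prl3d1 and Prl2c2 were at 0 in both, and the sums were 26.0 and 14.8 FPKM. Embryonic stem cell markers summed to 5184 FPKM in control cells against 5085 FPKM in the knockout, with 1 of 8 called higher, Tfcp2l1 (34.0 to 60.8 FPKM), and 0 lower. Only 3 of the 8 had ratios above 0, and the median ratio was -0.12. Dppa5a, the highest in level, stood at 1481 and 1876 FPKM, and the lowest ratio was -0.56, for Zfp42 (725 and 492 FPKM). Neither was called.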

How the data were processed

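RNA-seq of 6 libraries, 3 from control and 3 from knockout E14 cells, underlies the values, out of 43 samples in the series. The submitters' processing notes name TopHat2 2.1.0, Cuffdiff 2.2.1.3, Bowtie 1.0 and deepTools with no role given, and mm9 and mm10. Per the file headers, the authors computed FPKM and pooled the libraries to 1 value for each gene in each group. The log2 fold change, the test statistic (a score), and the p-value and q-value were also deposited by the authors. The deposited q equals a Benjamini-Hochberg adjustment of p over 11362 genes with status OK to within 5.2e-07. The smallest p is 5e-05, which gives q = 0.0012 for 472 genes. Starts were moved to 1-based, and 99.9% of 21116 genes matched by symbol overlap their RefSeq gene on GRCm38.p6, so coordinates are mm10.

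Ratios, sums, medians and motif matches were computed in Python 3.11.15 with pandas 2.3.3, NumPy 2.4.6 and SciPy 1.17.1. The calls are the authors', as pooled values allow no replicate test. The scripts were tested on simulated data. Neighbours were genes at 1 FPKM or above in control or knockout cells with a locus midpoint within 1 Mb. The members, lists and tests were chosen with earlier results of these data known. Named genes were all members and Mtf2, up to 4 called genes per list by size of ratio, and the 2 highest where none was called. A gene that this rule names is not reported here. Others (Ctsk, Cts8, Scpep1, M6pr, Gnptab, Glb1, Psap, Tfeb, Tfe3, Mitf, the locus partners, Sox7, Sox17, Sparc, Lamc1, Hnf4a, Amn, Foxa2, Dppa5a, Zfp42 and markers at 0) were added after values were seen. Alternatives were a q of 0.01, a 2-fold minimum on FPKM, a normal p from the test statistic, an FPKM minimum of 5, recomputed adjustment, pseudocounts of 0.1 and 1, scalings, chromosome or neighbour medians, and windows of 0.5 and 2 Mb.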

Additional observations from a re-analysis of the deposited data

How the results depend on the processing

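No paired analysis was possible because the table holds 1 pooled value per group, and for the same reason no library could be left out. The set kept 0 lower calls under every alternative run. It kept 7 higher calls with the FPKM minimum of 5 (8.7% of 8590 genes), which Ctsh passed only through its knockout value. Recomputed adjustment also kept 7, but this was fixed in advance, since the deposited q already equals that adjustment. The set had 5 higher calls at a q of 0.01, 6 with the 2-fold minimum (4.99% of tested genes, Ctsd lost) and 3 with a normal p from the test statistic. With that last setting the share called also fell over the whole table, from 12.9% of tested genes to 1.1% of those with a finite statistic. The cause of that drop was not tested. The median ratio ranged from 1.20, with chromosome medians subtracted, to 1.497, with equal summed FPKM. The sum over the set was 3.07 times control at equal summed FPKM and 2.57 times without Ctsl, an alternative chosen after seeing the data. Ctsb reversed to -0.25 with the median of its neighbours subtracted, and was -0.25 within 0.5 Mb and -0.02 within 2 Mb. Ctsc, which was not called, had 0.47 as measured and 1.49 with the median of its 2 neighbours subtracted, 2.01 within 0.5 Mb and 0.53 within 2 Mb. Of 56 tested genes in the related lists, 14 were called higher (25%, against 6.9% of all tested genes) and 3 lower (5.36%, against 6.03%). These became 12 and 1 at a q of 0.01 (21.4% and 1.79%, against 3.86% and 2.96%) and 9 and 1 with the 2-fold minimum (16.1% and 1.79%, against 4.99% and 2.92%). With a normal p they were 1 and 0 of 55 genes (1.82% and 0%, against 0.845% and 0.258%).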
